A study of Homo sapiens with 12 samples.

Results

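Genes of the vascular endothelial growth factor (VEGF) axis and 2 further genes known from blood vessels were measured in BON-1, a long-established line of human pancreatic neuroendocrine tumour cells. The 10 genes, of 54261 in the table, were the ligands VEGFA, VEGFB and VEGFC, the receptors KDR, FLT1 and FLT4, the co-receptors NRP1 and NRP2, the angiopoietin receptor TEK and the cadherin CDH5. They were taken by symbol, and KDR and CDH5 were included because their level in BON-1 alone already lay well above 1 FPKM, a unit that divides fragments by gene length and by library size. KDR and CDH5 were thus chosen by their FPKM in BON-1 alone, and that level is a description. Among the 10 genes, NRP2 lay nearest above 1 FPKM in BON-1 alone, at 1.67 ± 0.0191 FPKM, and FLT1 nearest below it, at 0.201 ± 0.053 FPKM (SD, n = 3 each).

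RNA selected for polyA tails was sequenced in 12 libraries, 3 from BON-1 alone and 3 each from BON-1 cells sorted by flow cytometry from co-culture with CAFs (commonly short for cancer-associated fibroblasts). The co-cultures held BON-1 cells and CAFs at ratios of 10:2, 10:4 and 10:6, and all groups carried the same cell line with no other treatment named in the labels. The labels give neither the purity of the sort nor whether BON-1 alone was sorted, and they do not say that libraries came from separate cultures, so the spread within groups may be technical. The 3 comparisons with BON-1 alone share the same 3 control libraries.

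VEGF ligands are secreted dimers that bind receptor tyrosine kinases. VEGFA binds FLT1 and KDR, VEGFB binds FLT1, and VEGFC binds FLT4 and, once processed, KDR. Neuropilins hold VEGF ligands near these receptors and also bind class 3 semaphorins together with plexins, and all of these genes are best known from blood and lymph vessels and from growing axons. CDH5 encodes VE-cadherin, the junction cadherin of endothelial cells, and pancreatic neuroendocrine tumours are known as richly vascularised tissue.

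Promoter windows are shown for KDR and FLT1, the pair of VEGFA receptors, of which KDR lay above and FLT1 below 1 FPKM in every library, and for TEK, which was at or under 3 reads in every library. Each window is the 250 bases before the RefSeq start of the gene in GRCh38.p14, at chr4:55125596-55125845 on the minus strand for KDR, chr13:28495129-28495378 on the minus strand for FLT1 and chr9:27108975-27109224 on the plus strand for TEK. Capitals mark the GC box GGGCGG and the ETS core AGGAAG on either strand.
KDR: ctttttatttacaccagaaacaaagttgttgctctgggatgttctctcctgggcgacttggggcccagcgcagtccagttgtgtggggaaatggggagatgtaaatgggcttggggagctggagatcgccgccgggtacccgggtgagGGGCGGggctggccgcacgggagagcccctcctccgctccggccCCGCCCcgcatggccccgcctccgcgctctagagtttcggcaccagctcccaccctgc
FLT1: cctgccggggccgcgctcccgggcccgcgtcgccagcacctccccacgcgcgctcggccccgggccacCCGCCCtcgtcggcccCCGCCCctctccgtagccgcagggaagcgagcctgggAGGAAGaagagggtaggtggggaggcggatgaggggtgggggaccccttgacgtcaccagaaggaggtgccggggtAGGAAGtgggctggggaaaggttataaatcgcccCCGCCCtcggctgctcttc
TEK: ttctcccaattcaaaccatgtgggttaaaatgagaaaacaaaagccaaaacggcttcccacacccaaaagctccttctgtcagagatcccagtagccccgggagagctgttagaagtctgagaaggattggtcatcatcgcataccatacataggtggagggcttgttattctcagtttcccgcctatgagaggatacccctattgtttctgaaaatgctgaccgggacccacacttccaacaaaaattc
The KDR window spelled the GC box 2 times and the ETS core 0 times, with a GC content of 65.2%. The FLT1 window spelled the GC box 3 times and the ETS core 2 times, with a GC content of 73.2%, and the TEK window spelled neither, with a GC content of 46.4%. Of 34943 windows of the same length, taken at every listed start and not only the outermost, 42.5% spelled the GC box on either strand. The ETS core was spelled in 28.7% of them, and the median GC content was 58%. A window at the outermost RefSeq start of the gene was found for 6 of the 10 genes. In those 6 neither GATAA nor ACGTG was spelled on either strand, against 20.5% and 18.5% of all windows. Matches of the 4 motifs were counted apart and may overlap. A match describes letters and is not a bound site.

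Library depth ran from 11703624 reads in 10:2 replicate 1 to 21882537 reads in BON-1 alone replicate 2. Of the table, 13312 genes reached 1 FPKM in at least 3 libraries and were tested with limma on log2(FPKM + 1), a scale that understates the change of low genes. The neuroendocrine markers summed to 2927 to 3021 FPKM at 10:6 and 2602 to 2680 FPKM in BON-1 alone, with 9 of 10 at 1 FPKM or more in both groups. This sum joins opposite directions. Of the 9 tested, 5 rose and 4 fell at 10:6 against BON-1 alone, where 48.0% of all tested genes passed. SCG2 averaged 1401 FPKM at 10:6 and 746.7 FPKM in BON-1 alone, and CHGA 975.1 and 1347 FPKM. The fibroblast markers summed to 265.3 to 269.6 FPKM at 10:6, 184.9 to 189.7 FPKM at 10:4 and 103.9 to 106.5 FPKM at 10:2, against 67.6 to 70.9 FPKM in BON-1 alone. In no group were any of the 19 at 0 in all 3 libraries, but 4 averaged under 0.1 FPKM in BON-1 alone. The sum joins unlike levels and directions. COL1A1 averaged 54.4 FPKM at 10:6 and 9.22 FPKM in BON-1 alone, DCN 0.334 and 0.0293 FPKM, and FBLN1 8.37 and 9.25 FPKM. Differences from BON-1 alone also followed gene length and GC content across the table, and values with both trends removed are given where they change a result. These used 12094 of the tested genes (90.85%), all 7 tested members of the VEGF set among them, with a median GC content of 49.73%. With both trends removed 3 of the neuroendocrine markers rose and 1 fell at 10:6, where 25.7% of all tested genes passed. The count that fell was 2 with quantile normalization and without 10:6 replicate 2.

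In order of level per length in BON-1 alone, the genes ran CDH5, VEGFA, NRP1, VEGFB, KDR, FLT4, NRP2, FLT1, VEGFC and TEK, from 28.8 ± 0.604 FPKM for CDH5 to 0.00319 ± 0.00553 FPKM for TEK (SD, n = 3). Each of these 3-library ranges lay clear of the next except those of VEGFC and TEK, which overlapped. CDH5 exceeded 80.2% of the tested genes in BON-1 alone, VEGFA 76.9%, NRP1 74.9%, VEGFB 63.5%, KDR 61.1%, FLT4 48.6% and NRP2 18.9%. At 10:2 and 10:4 NRP1 stood second after CDH5, with overlapping ranges of the pair at 10:4, and at 10:6 NRP1 was first with 29.6 ± 0.838 FPKM before CDH5 with 26.4 ± 1.02 FPKM and no overlap. KDR stood before VEGFB in each co-culture, with overlapping ranges at 10:4. The 7 genes from CDH5 to NRP2 were above 1 FPKM in all 12 libraries, and FLT1, VEGFC and TEK were below 1 FPKM in all 12.

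**Figure D1:**
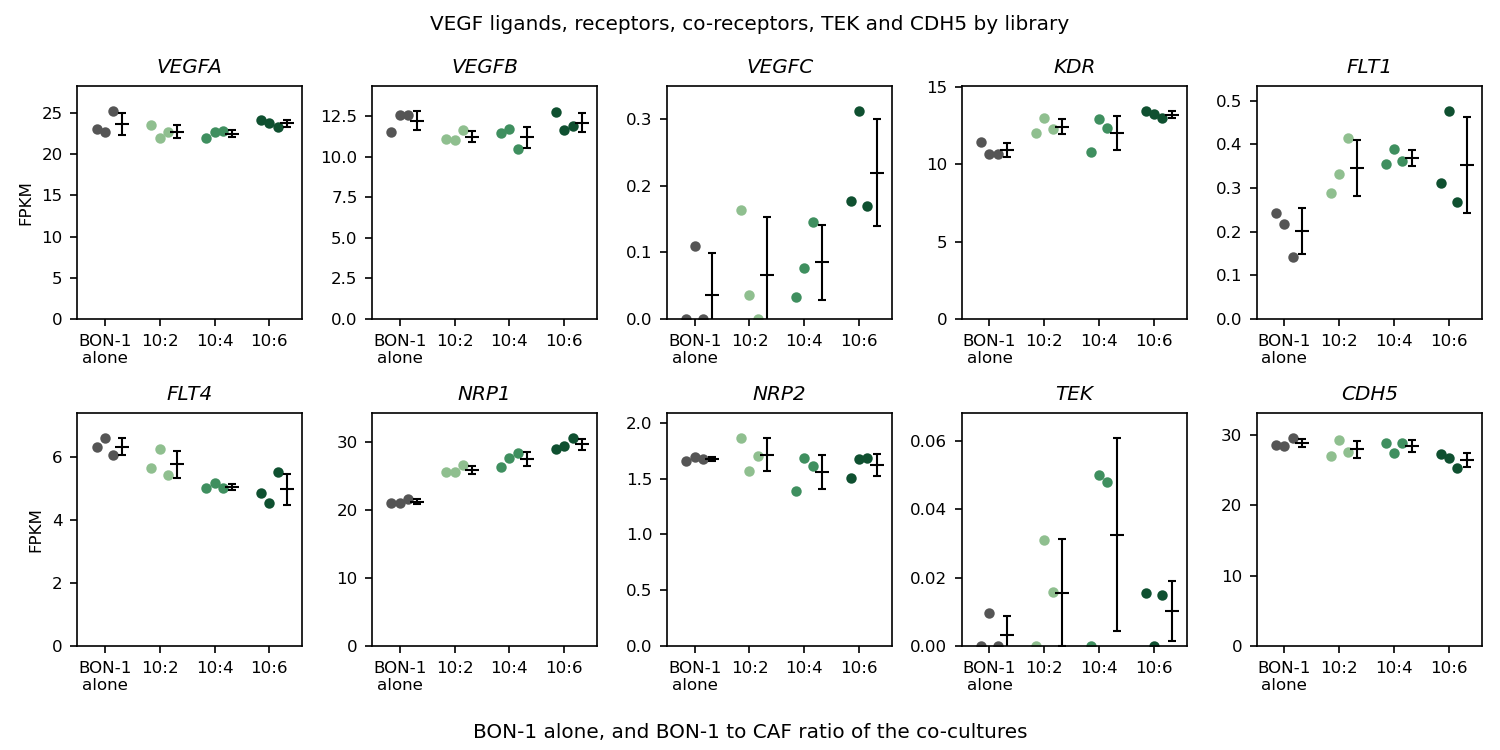
Each panel shows 1 gene, with FPKM on a linear axis from 0 and a point for each library of BON-1 alone and of the 10:2, 10:4 and 10:6 co-cultures; the bar beside the points is the mean with its SD (n = 3), cut at 0. NRP1 lies between 28.9 and 30.5 FPKM at 10:6 and between 21.0 and 21.6 FPKM in BON-1 alone, while VEGFC reaches at most 0.313 FPKM and TEK at most 0.0499 FPKM.

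VEGFA, the main ligand of vessel growth, did not pass the test at any ratio. VEGFA (chr6:43770211-43786487, plus strand) measured 23.1, 22.7 and 25.2 FPKM in BON-1 alone, 23.5, 22.0 and 22.7 FPKM at 10:2, 22.0, 22.7 and 22.8 FPKM at 10:4, and 24.1, 23.8 and 23.3 FPKM at 10:6. The BON-1 alone range took in or overlapped that of each co-culture. The log2 difference from BON-1 alone was 0.006 at 10:6, with a 95% interval of −0.088 to 0.10 (limma adjusted p = 0.921), −0.069 at 10:4 (−0.16 to 0.025, limma adjusted p = 0.213) and −0.054 at 10:2 (−0.15 to 0.040, limma adjusted p = 0.378). With median-of-ratios scaling the 10:4 difference was −0.11 and passed (limma adjusted p = 0.0469). Exons of the antisense gene AL136131.3 on the opposite strand share 188 bases with VEGFA exons, and whether reads were counted by strand is not given in the sources used here.

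VEGFB, a ligand of FLT1, likewise showed no difference that passed. VEGFB (chr11:64234584-64239264, plus strand) had 11.5, 12.6 and 12.6 FPKM in BON-1 alone, 11.08, 11.02 and 11.65 FPKM at 10:2, 11.5, 11.7 and 10.5 FPKM at 10:4, and 12.7, 11.6 and 11.9 FPKM at 10:6. Every co-culture range overlapped that of BON-1 alone. The log2 differences from BON-1 alone were −0.014 at 10:6, −0.11 at 10:4 and −0.11 at 10:2 (SE 0.0534 each, limma adjusted p = 0.85, 0.101 and 0.147). With length and GC trends removed they were 0.13 at 10:6, 0.012 at 10:4 and 0.0048 at 10:2, so the sign depended on that choice. At 10:4 the difference passed with median-of-ratios scaling (limma adjusted p = 0.033) and with quantile normalization (limma adjusted p = 0.0251).

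VEGFC, the ligand of FLT4, was near the limit of detection. VEGFC (chr4:176683538-176792922, minus strand) had 0, 5 and 0 reads in BON-1 alone, 4, 1 and 0 reads at 10:2, 1, 2 and 4 reads at 10:4, and 5, 10 and 5 reads at 10:6. In FPKM the 10:6 libraries held 0.177, 0.313 and 0.17, all above the highest BON-1 alone library at 0.11, while the other two BON-1 alone libraries were listed at 0. A count of 0 allows up to 3 reads, which is 0.0858 FPKM in BON-1 alone replicate 1 and 0.111 FPKM in replicate 3, for counting error only. The gene was below the level filter. In a fit without that filter the log2 difference at 10:6 was 0.23 ± 0.0705 (SE, limma adjusted p = 0.0425), from no more than 10 reads in a library. Beside it the fibroblast marker sum was 265.3 to 269.6 FPKM at 10:6 and 67.6 to 70.9 FPKM in BON-1 alone, and its part in this value was not tested.

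Of the ligands outside these genes, placental growth factor PGF, which binds FLT1, had 1.59, 2.12 and 1.56 FPKM at 10:6 and 0.312, 0.789 and 1.30 FPKM in BON-1 alone. The 10:6 libraries lay above those of BON-1 alone without passing the test (log2 difference 0.65 ± 0.28 SE, limma adjusted p = 0.0777). PGF passed without BON-1 alone replicate 3, without 10:2 replicate 1 or 2, in the fit of the compared groups alone and in limma-voom on recovered reads. Replicate 3 was the highest BON-1 alone library, at 1.30 FPKM, and the only one of them to reach 1 FPKM. The gene thus met the filter of 3 libraries only with co-culture libraries, in the main fit as well. Leaving out replicate 3 also lowered the BON-1 alone mean. Neither the main test of PGF nor any of these passes is therefore read as a result. FIGF, the symbol that the table uses for VEGFD, was listed at 0 in every library of 10:6 and of BON-1 alone.

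KDR, the main signalling receptor for VEGFA, was present in BON-1 alone and in every co-culture. KDR (chr4:55078481-55125595, minus strand) had 11.4, 10.6 and 10.6 FPKM in BON-1 alone, 12.02, 12.99 and 12.26 FPKM at 10:2, 10.7, 12.9 and 12.3 FPKM at 10:4, and 13.4, 13.2 and 12.9 FPKM at 10:6, from 832 to 1409 reads in a library. The 10:2 and 10:6 libraries lay above all BON-1 alone libraries, and 10:4 replicate 1 lay within their range. The log2 difference from BON-1 alone was 0.25 at 10:6, 0.12 at 10:4 and 0.17 at 10:2 (SE 0.06 each), given without a test because the level in BON-1 alone chose the gene. With length and GC trends removed these differences were 0.091 at 10:6, 0.02 at 10:4 and 0.066 at 10:2 (SE 0.0524 each). The spread among the 10:4 libraries was 9.38% of the mean, against a counting error of 3.22%, and it was 1.78% against 2.96% at 10:6.

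FLT1, the other receptor for VEGFA, was far below KDR per length. FLT1 (chr13:28300346-28495128, minus strand) had 0.243, 0.218 and 0.141 FPKM in BON-1 alone, 0.288, 0.332 and 0.414 FPKM at 10:2, 0.356, 0.39 and 0.363 FPKM at 10:4, and 0.312, 0.476 and 0.269 FPKM at 10:6, from 13 to 52 reads in a library. The 9 co-culture libraries lay above the 3 of BON-1 alone. Below the level filter FLT1 was not tested; in a fit without the filter the log2 differences were 0.17 at 10:6, 0.19 at 10:4 and 0.16 at 10:2 (SE 0.0627 each), and did not pass (limma adjusted p = 0.0977, 0.0654 and 0.164). The counting error of a library of average reads was 16.6% to 19.9% of its level, by group.

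FLT4, the receptor for VEGFC, fell at 10:4 and 10:6. FLT4 (chr5:180601506-180650298, minus strand) had 6.31, 6.60 and 6.07 FPKM in BON-1 alone, 5.64, 6.25 and 5.42 FPKM at 10:2, 5.004, 5.166 and 4.996 FPKM at 10:4, and 4.85, 4.55 and 5.51 FPKM at 10:6. All libraries of 10:4 and 10:6 lay below those of BON-1 alone, and the 10:2 range overlapped it. The log2 difference from BON-1 alone was −0.30 ± 0.0665 at 10:6 (SE, limma adjusted p = 0.00319), −0.27 at 10:4 (limma adjusted p = 0.00571) and −0.11 at 10:2 (limma adjusted p = 0.222). In bulk libraries of this kind, fewer cells that carry a transcript and less of it per cell cannot be told apart. FLT4 has a GC content of 61.9%, and with length and GC trends removed the difference was −0.21 at 10:6 (limma adjusted p = 0.0323) and −0.19 at 10:4, where it no longer passed (limma adjusted p = 0.0575).

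NRP1, the co-receptor for VEGFA and for semaphorins, rose at every ratio. NRP1 (chr10:33177493-33334667, minus strand) had 21.0, 21.0 and 21.6 FPKM in BON-1 alone, 25.5, 25.5 and 26.5 FPKM at 10:2, 26.3, 27.5 and 28.4 FPKM at 10:4, and 28.9, 29.3 and 30.5 FPKM at 10:6. No co-culture range overlapped that of BON-1 alone, and the 10:6 range lay above those of 10:2 and 10:4. The log2 difference from BON-1 alone was 0.46 ± 0.0369 at 10:6, 0.35 at 10:4 and 0.27 at 10:2 (SE the same, limma adjusted p = 2.55e-06, 1.7e-05 and 0.000286). The spread within groups was 1.62% to 3.73% of the mean and the counting error 2.00% to 2.27%.

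NRP1 has a GC content of 44.7%, below the median of the tested genes, and its differences were smaller once length and GC trends were removed. The difference was then 0.18 ± 0.0305 at 10:6 (SE, limma adjusted p = 0.00108) and 0.12 at 10:4 (limma adjusted p = 0.0125), and at 10:2 it was 0.084 and did not pass (limma adjusted p = 0.101). Fibroblasts are known to carry NRP1, and the fibroblast marker sum was 265.3 to 269.6 FPKM at 10:6 and 67.6 to 70.9 FPKM in BON-1 alone. Of the 14 fibroblast markers above the filter, 4 reached 1 FPKM in no library of BON-1 alone, so no count of calls over them is given. COL1A1, a chain of type I collagen, had 54.4 ± 0.794 FPKM at 10:6 and 9.22 ± 0.148 FPKM in BON-1 alone (SD, n = 3 each). The part of these markers in the NRP1 difference was not tested. The antisense gene AL121748.2 shares 561 exon bases with NRP1 on the opposite strand.

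NRP2, the neuropilin that binds VEGFC, had no call against BON-1 alone. NRP2 (chr2:205682501-205798131, plus strand) had 1.66, 1.69 and 1.67 FPKM in BON-1 alone, 1.86, 1.57 and 1.71 FPKM at 10:2, 1.39, 1.68 and 1.61 FPKM at 10:4, and 1.505, 1.68 and 1.68 FPKM at 10:6. Each co-culture range overlapped that of BON-1 alone. The log2 difference from BON-1 alone was −0.029 at 10:6, with a 95% interval of −0.19 to 0.14 (limma adjusted p = 0.781), −0.064 at 10:4 (−0.23 to 0.10, limma adjusted p = 0.521) and 0.019 at 10:2 (−0.15 to 0.18, limma adjusted p = 0.875). With quantile normalization the differences were −0.20 at 10:6 (limma adjusted p = 0.0311) and −0.24 at 10:4 (limma adjusted p = 0.0143), and both passed. The antisense gene AC007362.1 shares 147 exon bases with NRP2.

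TEK, the receptor for angiopoietins, was not detected above the floor of 3 reads. TEK (chr9:27109225-27230174, plus strand) had 0, 1 and 0 reads in BON-1 alone, 0, 2 and 1 reads at 10:2, 0, 3 and 3 reads at 10:4, and 1, 0 and 1 reads at 10:6. A count of 3 reads equals 0.0287 to 0.0537 FPKM for this gene, so differences below such levels were not detectable at this depth. No group stands apart at these counts. The ligands and partners of TEK were also low, and 0 of the 5 genes ANGPT1, ANGPT2, ANGPT4, TIE1 and PTPRB passed the level filter. Their sum was 1.10 to 1.43 FPKM at 10:6 and 0.868 to 1.01 FPKM in BON-1 alone.

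CDH5, the cadherin of endothelial junctions, was the most abundant of the 10 genes in BON-1 alone. CDH5 (chr16:66366691-66404784, plus strand) had 28.5, 28.5 and 29.5 FPKM in BON-1 alone, 27.0, 29.3 and 27.6 FPKM at 10:2, 28.8, 27.3 and 28.8 FPKM at 10:4, and 27.2, 26.7 and 25.3 FPKM at 10:6, from 1309 to 2581 reads in a library. The 10:6 libraries lay below those of BON-1 alone, and the ranges of 10:2 and 10:4 overlapped it. The log2 difference from BON-1 alone was −0.12 at 10:6, −0.025 at 10:4 and −0.044 at 10:2 (SE 0.0416 each), given without a test for the same reason as KDR. With length and GC trends removed it was −0.06 at 10:6, 0.063 at 10:4 and −0.0018 at 10:2.

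**Figure D2:**
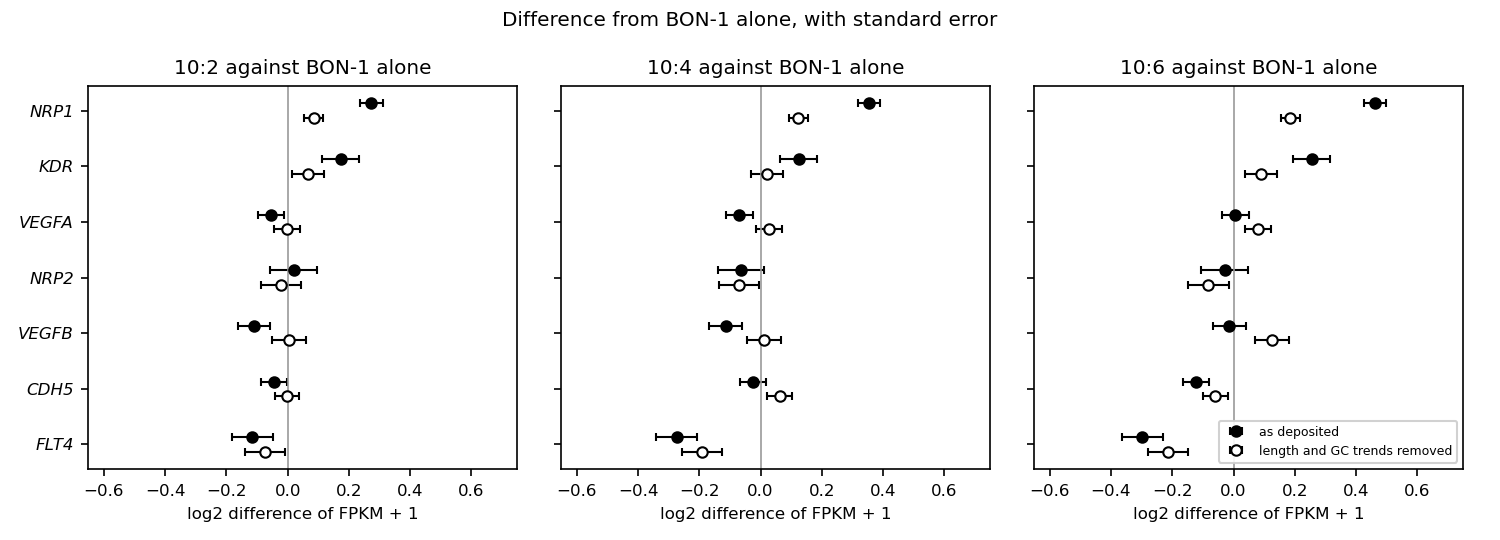
Log2 differences of FPKM + 1 from BON-1 alone for the 7 genes above 1 FPKM, 1 panel for each co-culture ratio, with bars of 1 standard error; filled circles are values as deposited and open circles have the trends on gene length and GC content removed. NRP1 lies right of 0 in each panel in both forms, at 0.46 and 0.18 for 10:6, and FLT4 lies left of 0, at −0.30 and −0.21 for 10:6.

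Leaving out KDR and CDH5, whose level in BON-1 alone chose them, 5 genes were tested against BON-1 alone. At 10:6, 2 of the 5 passed, NRP1 higher and FLT4 lower, where 48.0% of all tested genes passed. At 10:4 the same 2 genes passed, where 45.4% of all tested genes did. At 10:2 only NRP1 of the 5 passed, where 27.4% of all tested genes did. These counts are near the share over all genes and are no result about the VEGF axis. With both trends removed the shares over all genes were 25.7% at 10:6, 23.1% at 10:4 and 11.6% at 10:2, and the counts among the 5 genes were 2, 1 and 0 in that order.

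Comparisons among the co-cultures ask what a larger share of CAFs goes with, and all 7 genes entered these tests. For 10:6 against 10:2, only NRP1 of the 7 passed, with a log2 difference of 0.19 ± 0.0369 (SE, limma adjusted p = 0.0159), where 6.97% of all tested genes passed. That call ended without 10:2 replicate 2 (limma adjusted p = 0.0624), without 10:6 replicate 3 (limma adjusted p = 0.0685), in a fit of the compared groups alone (limma adjusted p = 0.0558) and with both trends removed (0.10, limma adjusted p = 0.0951), where 3.62% of all tested genes passed. For 10:4 against 10:2 and for 10:6 against 10:4, 0 of the 7 passed in limma and 0 in limma-voom on recovered reads, where 2.88% and 0.331% of all tested genes passed in limma. At an unadjusted p under 0.05 there were 2 of the 7 genes in each, where 21.6% of all tested genes were for 10:4 against 10:2 and 13.3% for 10:6 against 10:4: FLT4 and NRP1 for 10:4 against 10:2 and NRP1 and CDH5 for 10:6 against 10:4. The moderated F test over the 3 co-cultures passed for NRP1 (limma adjusted p = 0.033), where 5.36% of all tested genes passed, and that call ended in the fit of the co-cultures alone and with both trends removed, where 2.76% of all genes passed. It also ended without BON-1 alone replicate 1 or 2, 10:2 replicate 1 or 2, 10:4 replicate 2 or 10:6 replicate 2 or 3.

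The receptor KDR did not pass between ratios. Its log2 difference was 0.13 for 10:6 against 10:4, with a 95% interval of −0.00098 to 0.26 (limma adjusted p = 0.381), and 0.081 for 10:6 against 10:2 (−0.05 to 0.21, limma adjusted p = 0.435). CDH5 differed by −0.098 for 10:6 against 10:4, with a 95% interval of −0.19 to −0.0069 (limma adjusted p = 0.339), and by −0.079 for 10:6 against 10:2 (−0.17 to 0.012, limma adjusted p = 0.266). FLT4 differed by −0.18 for 10:6 against 10:2, with a 95% interval of −0.33 to −0.037 (limma adjusted p = 0.118).

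**Figure D3:**
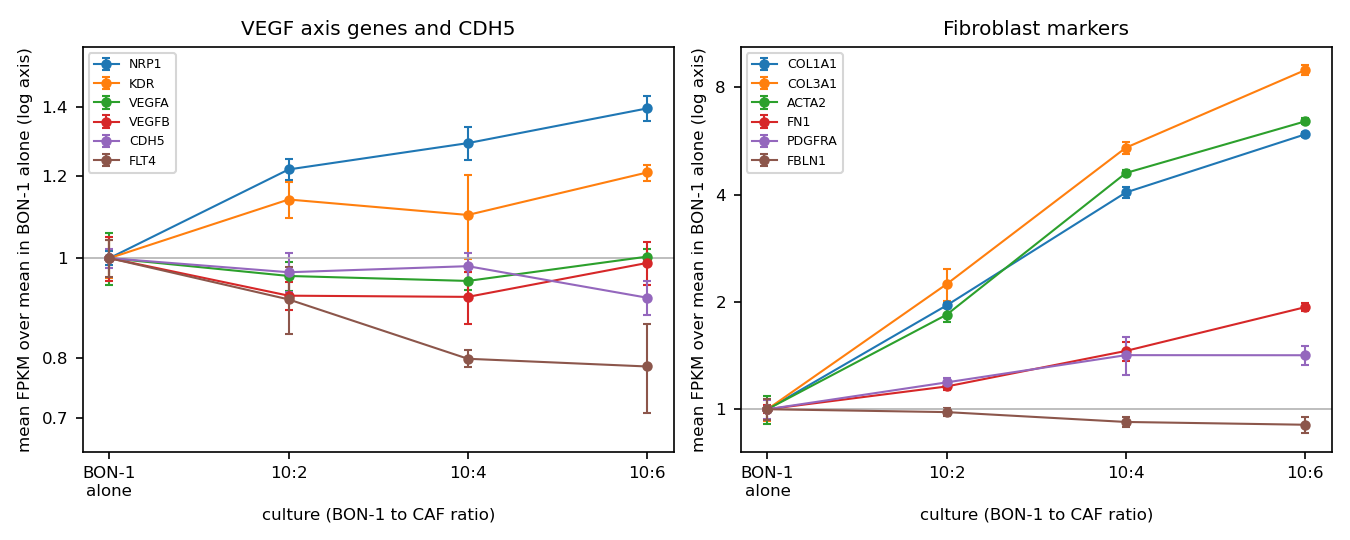
Mean FPKM of each gene divided by its mean in BON-1 alone (log axis), for BON-1 alone and each co-culture, with bars of 1 SD (n = 3) divided by the same mean; the left panel holds VEGF axis genes and CDH5, and the right panel 6 of the 19 fibroblast markers on another scale. NRP1 has 29.6 FPKM at 10:6 and 21.2 FPKM in BON-1 alone, and COL1A1 has 54.4 FPKM at 10:6 and 9.22 FPKM in BON-1 alone.

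BON-1 cells carried few of the other genes that mark endothelium. Of 19 endothelial markers, 3 averaged at least 1 FPKM in BON-1 alone: EGFL7, a secreted vessel factor, at 8.78 ± 0.405 FPKM, CLDN5, a tight junction claudin, at 3.75 ± 0.404 FPKM, and ESAM, an adhesion molecule, at 1.26 ± 0.196 FPKM (SD, n = 3 each). A further 13 averaged under 0.1 FPKM, and EMCN, CLEC14A, ECSCR, LYVE1 and ERG were at 0 in all 3 libraries. PECAM1, the CD31 adhesion molecule, had 9, 2 and 7 reads at 10:6 and 10, 10 and 3 reads in BON-1 alone. VWF, von Willebrand factor, had 3, 9 and 4 reads at 10:6 and 13, 31 and 13 reads in BON-1 alone. CDH5 thus stood at 28.8 FPKM beside PECAM1 at 0.0628 FPKM in the same BON-1 alone libraries.

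The summed level of the endothelial markers overlapped between BON-1 alone and both the 10:2 and 10:4 co-cultures, and lay above BON-1 alone at 10:6. It came to 15.6 to 16.2 FPKM at 10:6, 13.9 to 15.9 FPKM at 10:4 and 14.6 to 15.6 FPKM at 10:2, against 14.4 to 15.4 FPKM in BON-1 alone. EMCN was at 0 in every library of all 4 groups. ENG, a co-receptor for TGF-beta ligands, had 1.13 ± 0.188 FPKM at 10:4 and 0.69 ± 0.123 FPKM in BON-1 alone (SD, n = 3 each). It entered the fit only through 2 libraries of 10:4 and 1 of 10:6 that reached 1 FPKM, so its test and the counts over the 4 markers above the filter are not given. ENG is also known from fibroblasts, whose marker sums at 10:4 are given above, and their part in its level was not tested.

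Transcription factors known for endothelial identity were mixed in level. GATA2 stood at 13.5 ± 0.517 FPKM at 10:6 and 14.8 ± 0.903 FPKM in BON-1 alone, and NR2F2 at 8.86 ± 0.25 FPKM at 10:6 and 8.78 ± 0.172 FPKM in BON-1 alone. Neither passed at 10:6 (limma adjusted p = 0.0759 for GATA2 and 0.898 for NR2F2). At 10:4 GATA2 had 12.8 ± 0.746 FPKM, a log2 difference of −0.19 from BON-1 alone (limma adjusted p = 0.0106). That call ended with both trends removed, where 0 of the 4 tested factors fell at 10:4. PROX1, a regulator of lymphatic fate that islet cells also use, had 3.91, 4.29 and 4.12 FPKM at 10:6 and 2.26, 1.95 and 2.05 FPKM in BON-1 alone. PROX1 rose, with a log2 difference of 0.73 ± 0.0858 at 10:6 (SE, limma adjusted p = 4.09e-05), and of 0.29 with both trends removed (limma adjusted p = 0.00957). Of 12 such factors 4 were above the filter, of which 1 rose and 0 fell at 10:6, where 48.0% of all tested genes passed, and SOX17 was at 0 in all libraries of all 4 groups. The count that fell was 1 without BON-1 alone replicate 3, with median-of-ratios scaling and with quantile normalization.

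**Figure D4:**
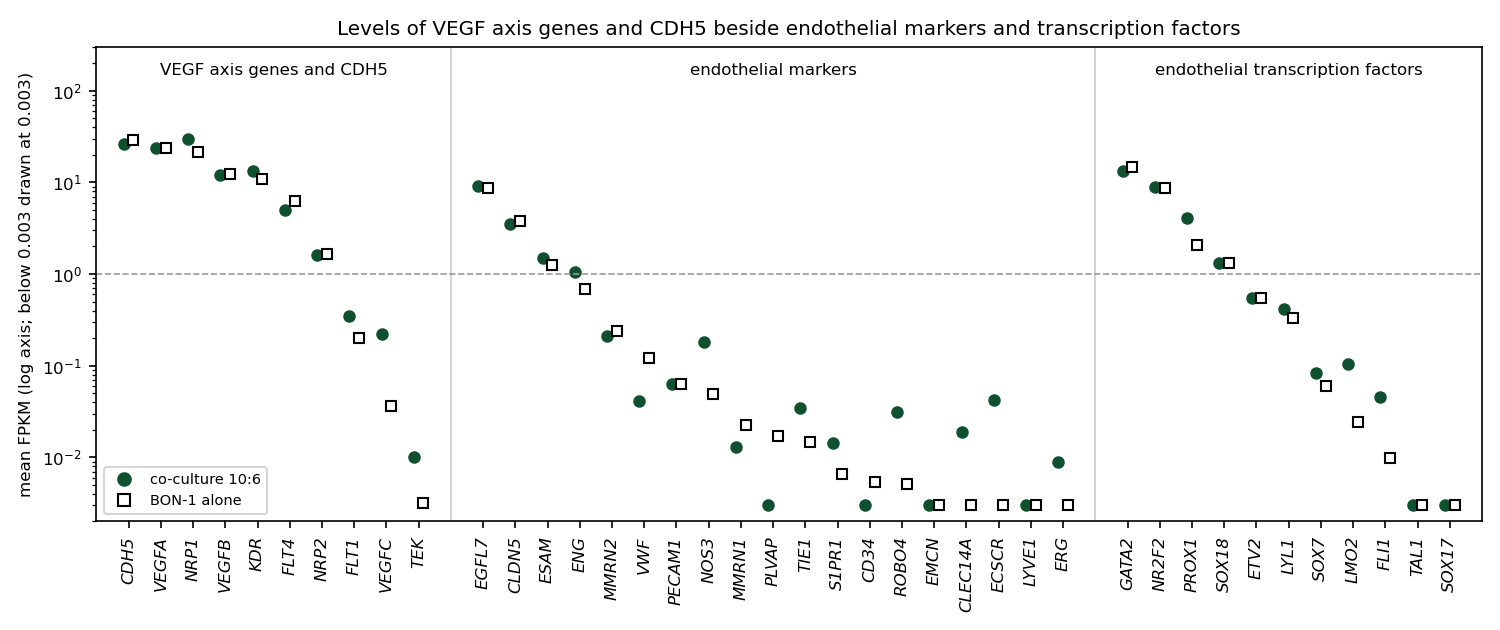
Mean FPKM (log axis, n = 3; values below 0.003, 0 included, are drawn at 0.003) at 10:6 (filled circles) and in BON-1 alone (open squares) for the VEGF axis genes with CDH5, 19 endothelial markers and the endothelial transcription factors not already among the markers, each block ordered by level in BON-1 alone; the dashed line is at 1 FPKM. CDH5 stands at 26.4 FPKM at 10:6 and 28.8 FPKM in BON-1 alone, and EGFL7 at 9.23 FPKM at 10:6 and 8.78 FPKM in BON-1 alone.

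Semaphorins and plexins are the partners of the neuropilins in axon guidance. Of 12 listed genes 8 were tested, of which SEMA3B and SEMA3E reached 1 FPKM in co-culture libraries alone. At 10:6 1 rose and 4 fell, where 48.0% of all tested genes passed, with a median log2 difference of −0.151 against 0.0193 over all tested genes. The count that rose was 2 without the level filter, in limma-voom and with both trends removed. The genes behind these counts and the median include SEMA3B and SEMA3E, which passed the filter through co-culture libraries. Neither the counts nor the median is therefore read as a result about the list. PLXND1, a semaphorin receptor of vessels, had 26.4 ± 1.43 FPKM at 10:6 and 32.4 ± 0.827 FPKM in BON-1 alone, a fall of log2 −0.28 (limma adjusted p = 0.000291), or −0.21 with both trends removed. PLXNA2 and PLXNA1, receptors that pair with neuropilins, fell by 0.26 and 0.20 on the log2 scale (limma adjusted p = 0.00128 and 0.00256). SEMA3F, the NRP2 ligand, fell by 0.17 (limma adjusted p = 0.0224), and that call ended with both trends removed (limma adjusted p = 0.435), without the level filter (0.0539) and without BON-1 alone replicate 1 (0.0869) or 3 (0.0535) or 10:6 replicate 2 (0.073) or 3 (0.0899).

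SEMA3A, the NRP1 ligand of axon repulsion, is named after its values were seen. It had 5.31 to 5.85 FPKM at 10:6, 6.96 to 7.23 FPKM at 10:4 and 5.23 to 5.54 FPKM at 10:2, against 2.84 to 3.11 FPKM in BON-1 alone. No co-culture range overlapped that of BON-1 alone, and 10:4 lay above the other two ratios. The log2 rise was 0.71 at 10:6, 1.03 at 10:4 and 0.69 at 10:2 (SE 0.0508 each, limma adjusted p = 1.1e-06, 9.19e-08 and 4.82e-06). With both trends removed it was 0.28 at 10:6 (limma adjusted p = 0.00274). For 10:4 against 10:2 the difference of SEMA3A was 0.34 (limma adjusted p = 0.00898), a call that ended with both trends removed. With the trends removed SEMA3A did not pass for 10:6 against 10:4 either.

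Of 27 listed genes that relay signals from VEGF receptors 23 were tested. At 10:6 7 rose and 6 fell, where 48.0% of all tested genes passed, with a median log2 difference of −0.0357 against 0.0193 over all tested genes. With both trends removed 3 rose and 1 fell, where 25.7% of all tested genes passed, and with median-of-ratios scaling the count that fell was 11. CDC42, a small GTPase of cell shape, had 116.3 ± 4.48 FPKM at 10:6 and 90.1 ± 1.93 FPKM in BON-1 alone (log2 difference 0.36, limma adjusted p = 4.16e-05), a call that ended with both trends removed (0.089, limma adjusted p = 0.0639). HSPB1, a small heat shock protein, AKT1, a kinase of cell survival, and RAC1, another small GTPase, passed at 10:6 with log2 differences of −0.15, −0.12 and 0.12 (limma adjusted p = 0.0301, 0.0351 and 0.0487), and all 3 signs turned without passing when both trends were removed. The HSPB1 call ended without BON-1 alone replicate 2 or 3 or any 1 library of 10:6 (limma adjusted p up to 0.102), and the AKT1 call without BON-1 alone replicate 1 or 3 or 10:6 replicate 2 or 3 (up to 0.149). The RAC1 call ended without BON-1 alone replicate 1 or 3, 10:2 replicate 2, 10:4 replicate 2 or 3, or any 1 library of 10:6 (up to 0.162). Without the level filter the calls of HSPB1, AKT1 and RAC1 also ended (limma adjusted p = 0.0821, 0.0752 and 0.107). Quantile normalization ended those of HSPB1 (limma adjusted p = 0.137) and AKT1 (0.115). The AKT1 call ended in the fit of the compared groups alone (limma adjusted p = 0.0686). Median-of-ratios scaling ended that of RAC1 (limma adjusted p = 0.303). The count of relay genes that fell was 3 without BON-1 alone replicate 3 or without 10:6 replicate 2 or 3.

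Regulators of VEGFA in the oxygen response included HIF1A, the oxygen-regulated transcription factor, which rose to 9.20 ± 0.79 FPKM at 10:6, against 4.81 ± 0.366 FPKM in BON-1 alone. The log2 difference was 0.81 ± 0.0803 (SE, limma adjusted p = 1.13e-05), and 0.41 with both trends removed (limma adjusted p = 0.000853). EGLN1, the hydroxylase that marks HIF1A for decay, rose by 0.37 (limma adjusted p = 0.00104), a call that ended with both trends removed (limma adjusted p = 0.55). HIF1AN, an inhibitor of HIF1A, differed by −0.14 (limma adjusted p = 0.0208), and that call ended without BON-1 alone replicate 1 (0.0589) or 3 (0.0823) or 10:6 replicate 2 (0.0857) or 3 (0.0511), while with both trends removed the difference was −0.32 (limma adjusted p = 0.000124). Of the 8 genes tested 2 rose and 1 fell at 10:6, where 48.0% of all tested genes passed, with a median log2 difference of 0.0219 against 0.0193 over all tested genes. The count that fell was 2 without 10:2 replicate 1 or 2, with either other scaling, in the fit of the compared groups alone and with both trends removed, where the count that rose was 1. VEGFA itself differed by 0.006 on the log2 scale in that comparison.

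Partners of VE-cadherin and the related cadherin CDH1 were abundant, while the cadherins CDH2 and CDH3 were below the level filter and not tested. CDH2 had 0.713 ± 0.124 FPKM at 10:6 and 0.14 ± 0.0127 FPKM in BON-1 alone (SD, n = 3 each). CDH3 had 0.287 ± 0.156 FPKM at 10:6 and 0.355 ± 0.0292 FPKM in BON-1 alone. Of 7 listed genes 5 were tested, and at 10:6 4 rose and 1 fell, where 48.0% of all tested genes passed, with a median log2 difference of 0.107 against 0.0193 over all tested genes. With both trends removed 0 rose and 2 fell, where 25.7% of all tested genes passed, and with median-of-ratios scaling the count that rose was 1. CTNNB1, beta-catenin, had 131.0 ± 1.18 FPKM at 10:6 and 112.2 ± 1.17 FPKM in BON-1 alone, a log2 difference of 0.22 (limma adjusted p = 1.37e-05) that turned to −0.084 with both trends removed (limma adjusted p = 0.0227). JUP, plakoglobin, had 110.3 ± 1.17 FPKM at 10:6 and 127.2 ± 2.00 FPKM in BON-1 alone, a log2 difference of −0.20 (limma adjusted p = 0.000635), or −0.084 with both trends removed (limma adjusted p = 0.0475). CDH1, the epithelial cadherin, stood at 86.0 ± 0.436 FPKM at 10:6 and 79.8 ± 1.61 FPKM in BON-1 alone, above CDH5 per length in both groups. Its call at 10:6 (0.11, limma adjusted p = 0.0153) ended with both trends removed (limma adjusted p = 0.682), with median-of-ratios scaling (0.224) and without BON-1 alone replicate 2 (0.0619). That of CTNNA1, alpha-catenin (0.084, limma adjusted p = 0.0277), ended with both trends removed, where its sign turned, with median-of-ratios scaling (0.513) and without BON-1 alone replicate 1 (0.056) or 3 (0.0984) or 10:6 replicate 1 (0.0585) or 3 (0.0818).

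Markers of pericytes and leukocytes were measured beside those of fibroblasts. The 6 pericyte markers summed to 3.41 to 3.68 FPKM at 10:6 and 0.8821 to 1.249 FPKM in BON-1 alone, with ABCC9 and KCNJ8 at 0 in BON-1 alone, and the 2 above the level filter, MCAM and NOTCH3, had 1.5 ± 0.108 and 1.37 ± 0.123 FPKM at 10:6 and 0.294 ± 0.0672 and 0.402 ± 0.028 FPKM in BON-1 alone. Both entered the fit through co-culture libraries alone, so their test is not given. The 8 leukocyte markers summed to 10.36 to 10.98 FPKM at 10:6 and 8.80 to 9.39 FPKM in BON-1 alone, with CD3E at 0 in both groups. Their part in the differences of the VEGF axis genes was not tested.

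Among 12633 other genes that averaged at least 1 FPKM, those with the pattern most like KDR over the 12 libraries were KLF6, ENTPD4, RALGAPB, CBL and EGFR, with Pearson's r of 0.933 to 0.918. KLF6 had 32 FPKM at 10:6 and 25.1 FPKM in BON-1 alone, and EGFR 4.21 FPKM at 10:6 and 3.31 FPKM in BON-1 alone. The genes most like CDH5 were HDAC10, SMOX, MUTYH, RHOD and TRABD, with r of 0.923 to 0.889, and HDAC10 had 12.7 FPKM at 10:6 and 15.7 FPKM in BON-1 alone. Those most like VEGFA were PPP1R11, PCDHGB2, PDIA4, CUX1 and ANKH, with r of 0.868 to 0.816. These values describe log2(FPKM + 1) over libraries that share depth, scaling and 4 groups, and the highest of so many correlations is large by choice.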

How the data were processed

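The measured data were 12 RNA-seq libraries in 1 gene-by-library table, whose FPKM values are as the authors deposited them. HISAT2, featureCounts and hg38 are named per the submitters' processing notes; no version is given in the sources used. Groups came from the titles, and 0 columns were unmatched. Whole reads were recovered from the FPKM steps: 99.9738% of 267349 nonzero values were whole within a relative 1e-06, for depths of 11703624 to 21882537 reads.

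The 10 genes, the pathway and marker lists and the tests were chosen with earlier results of these data known. Genes with at least 1 FPKM in at least 3 libraries entered limma 3.58.1 (R 4.3.3) on log2(FPKM + 1), with 1 mean per group over 12 libraries, a variance trend and Benjamini-Hochberg adjustment over 13312 genes at 0.05. List genes were named where they passed at 10:6 against BON-1 alone or 10:2, up to 4 of a list by mean FPKM. Of these the leukocyte genes, most fibroblast genes and the neuroendocrine genes other than SCG2 and CHGA were left unnamed. Other list genes that are named were chosen after their values were seen. The procedure was tested on simulated data. Alternatives were a pseudocount of 0.1, no filter, median-of-ratios and quantile scaling, a fit of the compared groups alone, a replicate block, limma-voom on recovered reads, each library left out, and removal of trends on length and GC content (natural splines with 5 degrees of freedom, longest GENCODE 29 transcript). Intervals are at 95%, and floors of 3 reads cover counting error only. Positions and promoters are from RefSeq, GRCh38.p14. Tables were made in Python 3.11.15 with numpy 2.4.6 and pandas 2.3.3, and figures with matplotlib 3.10.9.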

Additional observations from a re-analysis of the deposited data

How the results depend on the processing

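Over the VEGF axis genes and CDH5, 795 of 840 recomputed log2 differences kept their direction and side of the threshold, or for KDR and CDH5 against BON-1 alone stayed within the spread of replicates. In many of these alternatives the difference could not change, because the means of the compared groups stayed the same. These were the fits without the filter, with the replicate block, of the compared groups alone, and without a library of a group outside the comparison. In them only the p could move, so the share of 795 is not a measure of robustness. At 10:2 against BON-1 alone the count of genes past the threshold was 1, and it was 2 with quantile normalization and 0 with length and GC trends removed. At 10:4 the count of 2 became 4 with median-of-ratios scaling, 4 with quantile normalization and 1 with the trends removed. For 10:6 against 10:2 and for the F test the count of 1 became 0 in a fit of the compared groups alone and 0 with the trends removed, and ran from 0 to 1 over single libraries left out. At 10:6 against BON-1 alone NRP1 and FLT4 passed in all alternatives run, and the count of 2 became 3 with quantile normalization, which added NRP2, and 3 without the level filter, which added VEGFC. The cause was not tested. Over 20 alternatives the limma adjusted p of NRP1 against BON-1 alone ran from 3.64e-12 to 0.00108 at 10:6, 2.3e-09 to 0.0125 at 10:4 and 1.18e-06 to 0.101 at 10:2, and that of FLT4 from 5.99e-05 to 0.0323 at 10:6 and 0.000258 to 0.0575 at 10:4.

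Signs turned in 29 of the 840 values, 2 of them of CDH5 at 10:4 against BON-1 alone (trends removed and quantile normalization), which has no test, and 0 of the other 27 passed the threshold in either form. With the trends removed VEGFA was 0.027 at 10:4 against BON-1 alone and 0.029 at 10:4 against 10:2, VEGFB was 0.0048, 0.012 and 0.13 at 10:2, 10:4 and 10:6 against BON-1 alone and 0.0074 at 10:4 against 10:2, and NRP2 was −0.022 at 10:2 against BON-1 alone and −0.012 at 10:6 against 10:4. With median-of-ratios scaling VEGFA at 10:6 was −0.054 and NRP2 at 10:2 was −0.0021 against BON-1 alone, and with quantile normalization NRP2 at 10:2 was −0.11. Over single libraries left out, values against BON-1 alone ran from −0.023 to 0.051 for VEGFA at 10:6, −0.052 to 0.011 for VEGFB at 10:6, −0.021 to 0.058 for NRP2 at 10:2 and −0.046 to 0.0038 for NRP2 at 10:6. For 10:4 against 10:2 they ran from −0.10 to 0.022 for KDR, −0.0047 to 0.052 for CDH5, −0.037 to 0.0079 for VEGFA and −0.032 to 0.040 for VEGFB, and for 10:6 against 10:4 from −0.088 to 0.028 for FLT4 and −0.013 to 0.069 for NRP2. The list genes that met the naming rule, those left unnamed included, and SEMA3A gave 224 recomputed values at 10:6 against BON-1 alone. Fits with single libraries left out are not among these. Of the 224 values 25 lost their call, and a further 5 turned sign with the trends removed: HSPB1 to 0.0049, AKT1 to 0.011, RAC1 to −0.098, CTNNB1 to −0.084 and CTNNA1 to −0.028.

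Same-numbered libraries of different groups deviated with r from −0.0427 to 0.0458, and 0 of 18 pairs exceeded 0.1. Libraries with other numbers deviated with r from −0.053 to 0.0622, so no pairing by replicate number was seen. A correlation over all tested genes cannot show a shared batch that moves few genes, so whether replicates are paired is not settled. A fit with the replicate number as a block left 1, 2 and 2 genes past the threshold at 10:2, 10:4 and 10:6 against BON-1 alone and 1 for 10:6 against 10:2, as without it, and ended the calls of HSPB1, AKT1, RAC1 and CTNNA1 at 10:6 (limma adjusted p = 0.0521, 0.0577, 0.073 and 0.0502). Depth limited FLT1, VEGFC and TEK, with at most 52, 10 and 3 reads in a library.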
